A study of Mus musculus with 25 samples.

Results

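The mitochondrial ribosomal proteins are encoded in the nucleus by the Mrpl genes, named for the large ribosomal subunit, and the Mrps genes, named for the small one. Genes were taken by symbol, as an Mrpl or Mrps name followed by a number and without pseudogenes, and each was read from the transcript cluster with the highest mean among those that carry its symbol alone. That gave 71 of 22180 measured genes, 43 Mrpl and 28 Mrps. A further 7 symbols occurred only on clusters shared with another gene and were kept apart. Expression was measured on Affymetrix Mouse Gene 2.0 ST arrays in gonadal white adipose tissue, the fat pad beside the testis and epididymis, with 1 male mouse per array according to the labels.

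All mice were heterozygous for apoE3L.CETP, that is, they carried the APOE3-Leiden variant and human cholesteryl ester transfer protein, transgenes that give mice a lipoprotein metabolism closer to the human one. The chow group (2 arrays) was sampled at 12 weeks of age, when the other mice started on 1 of 2 diets. The low-fat diet (LFD) held 10% fat, 70% carbohydrate and 20% protein. The high-fat diet (HFD) held 60% fat, 20% carbohydrate, 20% protein and 0.25% cholesterol, so fat, carbohydrate and cholesterol differed together. The LFD groups held 4 arrays each at 4, 8 and 12 weeks of diet, and the HFD groups held 3, 4 and 4. Labelled ages were 16 weeks after 4 weeks of diet, 20 weeks after 8, and 34 weeks after 12, which does not follow from the starting age; time on diet is used here. No group was wild type, with the promoters of the transgenes not given in the sources used here.

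Mitochondria keep a small genome that encodes core subunits of the respiratory chain and of ATP synthase, together with the RNAs of their own ribosome. Every protein of that ribosome is made in the cytosol from nuclear genes and imported. Many have bacterial homologues and others exist only in mitochondria, and both subunits must be assembled in matched amounts before the ribosome can translate at the inner membrane. White adipocytes need mitochondria for fatty acid handling, lipogenesis and adipokine production.

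The tissue label was borne out by its markers. The 11 measured of 12 adipocyte markers, Adipoq and Plin1 among them, were above the median of all genes in every group, and their mean lay between 12.0 and 12.4 on the log2 scale in all arrays but chow replicate 1, at 11.2. Transcripts of other tissues differed between arrays. The mean of 26 hepatocyte markers lay between 8.97 and 10.7 in 11 of the 16 later arrays, those of 8 and 12 weeks. It did not exceed 7.30 in the remaining 14. The 11 were LFD 8-week replicates 1 and 2, HFD 8-week replicates 2, 3 and 4, and replicates 1, 2 and 4 of both diets at 12 weeks. The mean of 15 epididymis markers was 10.5 in chow replicate 1, 8.67 in HFD 4-week replicate 1 and 4.64 in LFD 4-week replicate 1. The mean of 15 macrophage markers moved with diet, from 8.16 to 8.24 in LFD against 8.85 to 9.90 in HFD arrays at 8 weeks and from 7.90 to 8.38 against 9.18 to 9.87 at 12 weeks. What these transcripts contribute to the differences below was not tested. Where values with and without such arrays are given, some groups hold a single array, so the values only describe those arrays. In whole tissue, fewer cells of a type and less RNA per cell cannot be told apart.

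Mitochondrial ribosomal protein transcripts were highest after 8 weeks of LFD, and both subunits showed it. Averaged over its 43 genes, the large subunit stood at 7.64 ± 0.07 (log2 array value, SD, n = 4) in LFD at 8 weeks and at 7.44 ± 0.04 (n = 4) in HFD. The small subunit stood at 7.46 ± 0.07 and 7.25 ± 0.02 in the same groups. Large-subunit means of the 4 LFD 8-week arrays ran from 7.58 to 7.70, above each of the other 21 arrays, of which the highest reached 7.57. Small-subunit means of these 4 ran from 7.40 to 7.55, and 1 other array, of LFD at 12 weeks, reached 7.41. LFD and HFD arrays did not overlap at 8 weeks for either subunit, nor at 12 weeks, where the large subunit stood at 7.52 ± 0.03 against 7.40 ± 0.04 and the small at 7.37 ± 0.03 against 7.24 ± 0.04. They overlapped at 4 weeks, at 7.31 ± 0.14 in LFD (n = 4) and 7.39 ± 0.09 in HFD (n = 3) for the large subunit and at 7.21 ± 0.12 and 7.22 ± 0.05 for the small. Chow arrays were the most spread, at 7.20 ± 0.19 and 7.09 ± 0.24 (n = 2), with replicate 1, the array with high epididymis transcripts, below replicate 2.

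**Figure D1:**
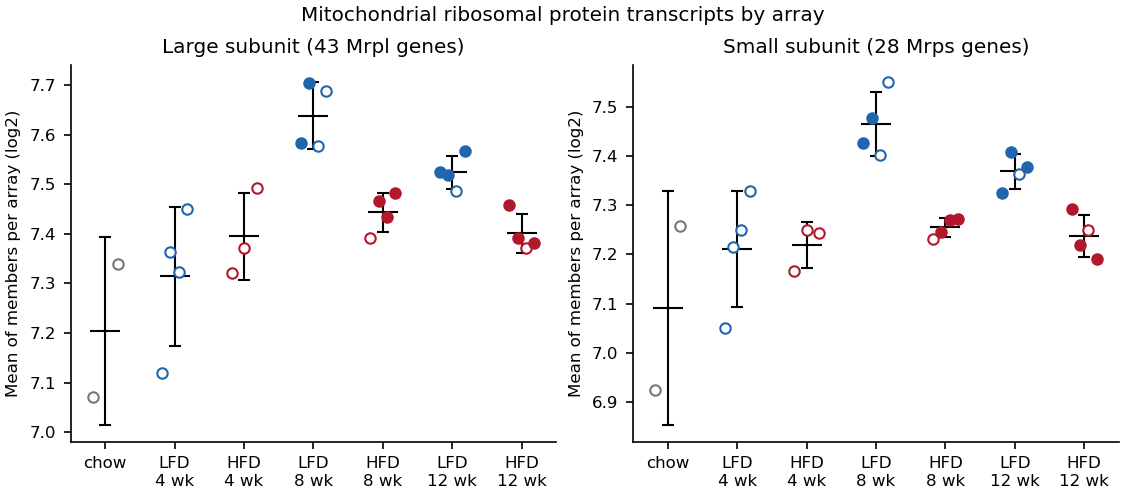
Mean array value (log2) of the 43 Mrpl genes (left) and the 28 Mrps genes (right) in each diet group; each point is 1 array, filled where the hepatocyte marker mean was above 8, and horizontal lines with bars give the group mean ± SD. The 4 LFD 8-week arrays lie highest for the large subunit, and LFD and HFD do not overlap at 8 or 12 weeks.

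In LFD at 8 weeks, large-subunit means covered a like range in the 2 arrays with few hepatocyte transcripts and the 2 with many. What these transcripts contribute to that level was not tested. Replicates 3 and 4, with few of them, gave large-subunit means of 7.58 and 7.69, and replicates 1 and 2, with many, gave 7.58 and 7.70. HFD at 8 weeks gave 7.39 in its single array with few and 7.43 to 7.48 in the other 3. The distance between the 2 subunits was alike in both diets at 8 and 12 weeks. The large-subunit mean minus the small-subunit mean was 0.17 ± 0.04 in LFD and 0.19 ± 0.03 in HFD at 8 weeks, and 0.16 ± 0.05 and 0.16 ± 0.03 at 12 weeks. At 4 weeks it was 0.10 ± 0.04 in LFD and 0.18 ± 0.06 in HFD, and the arrays overlapped there too. Within LFD the distance was larger at 8 weeks (0.14 to 0.23) than at 4 weeks (0.07 to 0.15), with a small overlap.

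Gene by gene, 49 of the 71 members (69%) had their highest group mean in LFD at 8 weeks, 30 of 43 large and 19 of 28 small, against 14.8% of all genes. LFD at 12 weeks held the highest mean of 10 further members. Exceptions included Mrps9, Mrpl23 and Mrpl52, whose highest mean was in chow, and Mrps30, highest in LFD at 4 weeks.

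**Figure D2:**
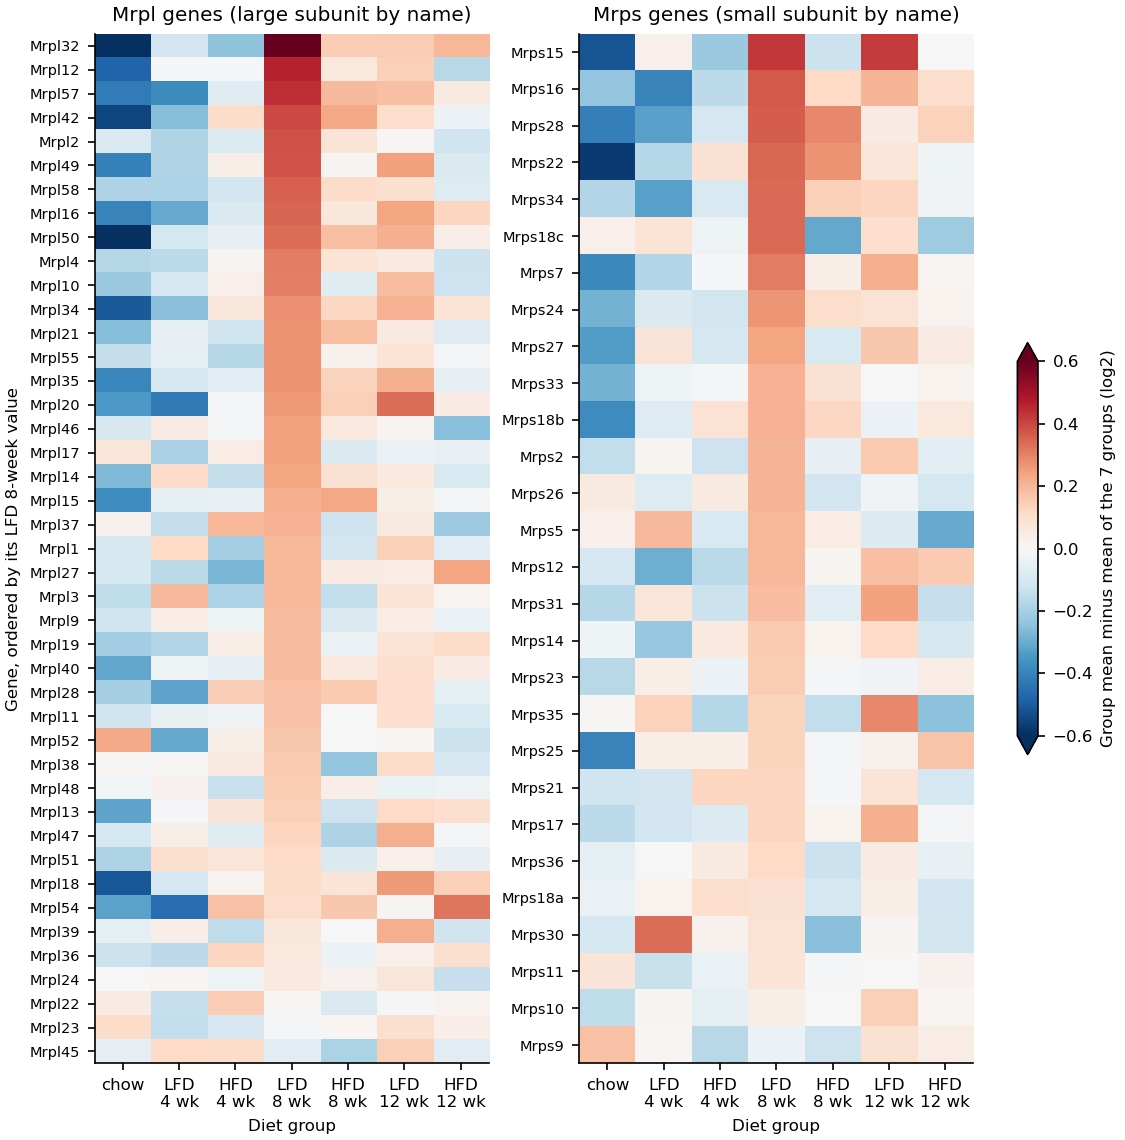
Group means (log2) of each of the 71 genes minus the mean of that gene's 7 group means, Mrpl genes left and Mrps genes right, ordered by the LFD 8-week value; red is above and blue below the gene's own mean, and colours saturate at 0.6. The LFD 8-week column is red for nearly every gene, and 49 of 71 genes have their highest mean there.

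Within LFD, transcripts of both subunits were higher at 8 than at 4 weeks. The moderated test called 11 of the 71 members (15.5%) higher and none lower at a Benjamini-Hochberg adjusted p under 0.05 over all genes, against 0.469% of all genes called higher. The median difference was 0.33 for the large and 0.24 for the small subunit (log2), with all genes at 0, and 67 of 71 members lay above 0. Of the 11, Mrpl57 had the largest difference; it encodes mL63, a protein found only in mitochondrial ribosomes, and read 6.05, 6.17, 6.08 and 6.36 in the 4 LFD arrays of 4 weeks and 7.02, 7.02, 6.98 and 6.95 at 8 weeks. All 8-week arrays lay above all 4-week arrays, and the difference was 0.83 ± 0.10 (log2 fold change ± standard error, 1.77-fold, adjusted p = 5.81e-04).

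Mrpl58, a relative of peptide release factors built into the central protuberance of the large subunit, read 8.31, 8.34, 8.43 and 8.62 at 4 weeks and 8.84, 9.20, 8.86 and 8.99 at 8 weeks. Its groups did not overlap either, and it rose by 0.55 ± 0.09 (adjusted p = 0.0131). In the small subunit, Mrps28 rose by 0.69 ± 0.13 (adjusted p = 0.0173) and Mrps34, needed for the stability of the small subunit, by 0.67 ± 0.13 (adjusted p = 0.0178). The remaining calls were Mrpl16 at 0.65, Mrps7 at 0.48, Mrpl50 at 0.44, Mrpl54 at 0.56, Mrps16 at 0.77, Mrpl34 at 0.53 and, with the largest adjusted p of 0.0497, Mrpl4 at 0.46. Calls of Mrpl57 and Mrpl58 were kept in all 25 fits that left out 1 array. Those of Mrps28 and Mrps34 were lost in 3 each, and those of Mrpl16 and Mrps7 in 4 each. Mrpl50, Mrpl54, Mrps16 and Mrpl34 lost theirs in 13, 15, 16 and 18, and Mrpl4 was not followed. A second cluster of Mrps16 gave 0.31. For 27 of 71 members (38%) the lowest 8-week array lay above the highest 4-week array, against 4.89% of all genes.

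The number of calls moved with many single arrays, and the shares of all genes called in those changed fits are not given here. LFD 4-week replicate 1 had raised epididymis transcripts (mean 4.64) and the lowest subunit means of its group. It also had the highest hepatocyte mean of the 4-week arrays (7.15) and the highest array median (5.36). The count was 2 without that array, 3 without LFD 8-week replicate 1, 2 or 4, and 6 without LFD 8-week replicate 3. It was 5 without LFD 4-week replicate 3 and 17 without chow replicate 1 or 2. Arrays outside the comparison, which share its estimate of spread, moved it too: it was 6 without HFD 8-week replicate 2, HFD 12-week replicate 2 or LFD 12-week replicate 1, 2 or 4, and 7 without HFD 8-week replicate 1 or 3 or HFD 12-week replicate 4. It was 6 without the 3 arrays with raised epididymis transcripts, and 4 with the hepatocyte split as a block. At 12 weeks against 4, LFD had 3 members called higher (background 0.298%): Mrpl57 at 0.56 ± 0.10 (adjusted p = 0.0107), Mrpl20 at 0.76 ± 0.17 (adjusted p = 0.0393) and Mrpl16 at 0.54 ± 0.12 (adjusted p = 0.0451). That count was 0 without LFD 12-week replicate 4 and 6 without replicate 3. Time on HFD gave no call by limma, where all genes gave 0% for 8 against 4 weeks, 0.573% for 12 against 4 and 0.0361% for 12 against 8. At an unadjusted p under 0.05, 7 members passed for 8 against 4 weeks (all genes 8.85%), 3 for 12 against 4 (all genes 11.2%) and 4 for 12 against 8 (all genes 7.37%). LFD at 12 against 8 weeks gave no call (all genes 0.0676%), with 8 members at an unadjusted p under 0.05, all lower at 12 weeks (all genes 8.91%, either direction).

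At 8 weeks nearly all members were lower in HFD than in LFD, mostly by small amounts. HFD minus LFD, which shares the LFD 8-week arrays with the comparison of 8 and 4 weeks, was below 0 for 68 of the 71, 40 of 43 large and 28 of 28 small, where 51.6% of all genes lay below 0. The median was -0.17 in both subunits, beside -0.01 over all genes. The 3 above 0 were Mrpl15 and Mrpl23 at 0.02 and Mrpl54 at 0.055. Only 2 members passed the test, both small-subunit genes and both lower in HFD (2.82% of members, with 1.24% of all genes called lower). At an unadjusted p under 0.05, 26 members were lower and none higher, against 7.49% of all genes lower. HFD arrays lay wholly below LFD arrays for 17 members (23.9%; all genes 6.42%) and wholly above for none (all genes 5.01%). The subunit medians were -0.22 and -0.20 among arrays with few hepatocyte transcripts and -0.18 and -0.16 among arrays with many. Arrays with few were 1 of HFD, with a hepatocyte mean of 6.64, and replicates 3 and 4 of LFD, at 5.36 and 5.53. Macrophage markers were higher in every HFD array of 8 weeks than in any LFD array. The adipocyte marker mean was lower in them, at 12.15 to 12.23 in HFD (12.18 ± 0.04, n = 4) against 12.25 to 12.44 in LFD (12.34 ± 0.08, n = 4), the highest mean of any group. The part of either marker list in these differences was not tested.

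**Figure D3:**
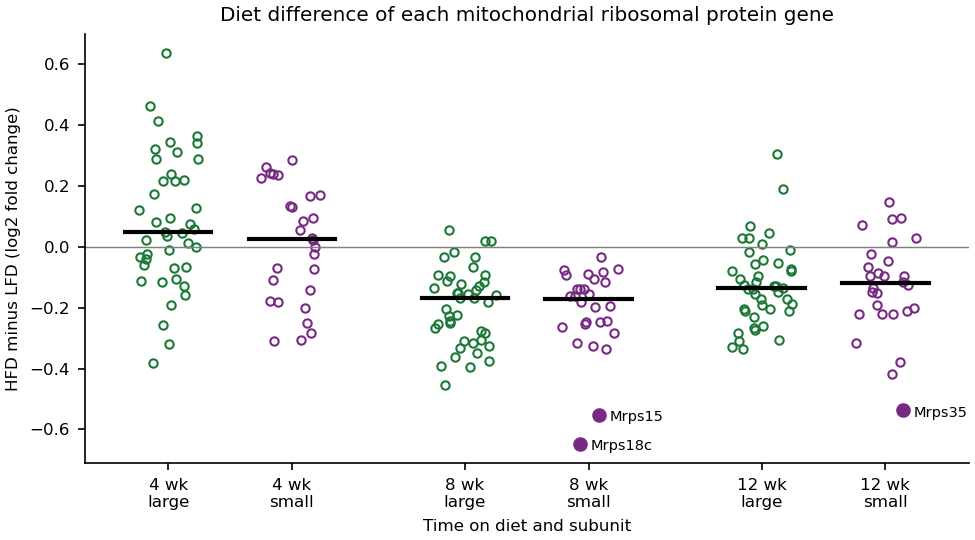
HFD minus LFD (log2 fold change) of each Mrpl gene (green) and Mrps gene (purple) at 4, 8 and 12 weeks; filled points passed the test at an adjusted p under 0.05 and bars are medians. At 8 weeks 68 of 71 genes lie below 0, and Mrps15, Mrps18c and Mrps35 are the genes that passed at a single time.

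Mrps15, the mitochondrial form of the conserved ribosomal protein uS15, which binds small-subunit rRNA, read 10.06, 10.26, 10.23 and 10.52 in LFD and 9.66, 9.71, 9.61 and 9.88 in HFD at 8 weeks. The groups did not overlap. HFD lowered it by 1.47-fold (-0.55 ± 0.13, adjusted p = 0.0212). Mrps18c, the mitochondrial bS18, read 6.97, 5.89, 6.31 and 6.37 in LFD and 5.69, 5.48, 5.85 and 5.93 in HFD. LFD replicate 2 fell below HFD replicate 4, and LFD replicate 1 lay well above the rest. HFD lowered it by 1.57-fold (-0.65 ± 0.15, adjusted p = 0.0280). A second cluster of Mrps18c gave 0.085, and over the mean of both the difference was -0.28 (adjusted p = 0.362), so the call rests on 1 cluster. Leaving out HFD 8-week replicate 1 or LFD 8-week replicate 4 left no member called at 8 weeks, leaving out HFD replicate 2 or 3 or LFD replicate 1, 2 or 3 left 1, and leaving out LFD 4-week replicate 1 gave 4. Without the 3 arrays with raised epididymis transcripts, 9 were called. Shares of all genes called in these changed fits are not given here. The 200 bases before the start of Mrps15 and Mrps18c are shown because these were the 2 members called at 8 weeks (RefSeq, GRCm38.p6, both on the + strand). They lie at chr4:126046728-126046927 for Mrps15 and chr5:100798559-100798758 for Mrps18c. Mrps18c holds a match to the ETS letters described below, in capitals, and Mrps15 holds none.
Mrps15: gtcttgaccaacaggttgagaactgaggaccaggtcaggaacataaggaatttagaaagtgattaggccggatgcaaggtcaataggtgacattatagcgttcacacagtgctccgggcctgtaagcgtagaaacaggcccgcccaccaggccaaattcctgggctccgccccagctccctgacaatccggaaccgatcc
Mrps18c: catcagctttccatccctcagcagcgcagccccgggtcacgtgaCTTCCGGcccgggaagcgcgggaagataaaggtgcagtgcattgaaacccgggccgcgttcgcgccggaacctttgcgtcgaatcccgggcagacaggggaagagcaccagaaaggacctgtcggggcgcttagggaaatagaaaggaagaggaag

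The next 8 members by p at 8 weeks, none past the threshold, were Mrpl12, Mrpl1, Mrpl58, Mrps7, Mrps30, Mrpl17, Mrpl38 and Mrps26. Mrpl12, the bL12 protein of the stalk that recruits translation factors, read 7.80, 8.13, 7.95 and 7.98 in LFD and 7.40, 7.63, 7.63 and 7.62 in HFD. Its groups did not overlap, with a difference of -0.40 ± 0.11 (adjusted p = 0.0734). Mrpl1, of the L1 stalk that guides spent tRNA out of the ribosome, differed by -0.31 ± 0.10 (adjusted p = 0.124), and Mrps30 by -0.34 ± 0.12 (adjusted p = 0.164). Mrpl58, which had risen from 4 to 8 weeks of LFD, read 8.74, 8.73, 8.68 and 8.74 in HFD, below all 4 LFD values given above (-0.25 ± 0.09, adjusted p = 0.156). The others ranged from -0.39 in Mrpl38, of the central protuberance, to -0.27 in Mrps7, a small-subunit protein with a bacterial homologue.

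At 12 weeks most members were again lower in HFD than in LFD. Of the 71 members, 58 lay below 0, 36 of 43 large and 22 of 28 small (all genes 51.7%), with medians of -0.14 and -0.12 beside -0.01 over all genes. HFD arrays lay wholly below LFD arrays for 14 members (19.7%; all genes 5.08%) and wholly above for 1, Mrpl54 (all genes 7.52%). One member, or 1.41%, was called lower, beside 1.33% of all genes, so the share called was near the background. It was Mrps35, a small-subunit protein found only in mitochondria, which read 7.28, 7.28, 7.28 and 7.17 in LFD and 6.81, 6.75, 6.72 and 6.58 in HFD. The groups stood well apart and HFD lowered it by 1.45-fold (-0.54 ± 0.11, adjusted p = 0.00459). Its call held when any single array was left out. Mrps31 and Mrps15 came next, at -0.38 ± 0.11 (adjusted p = 0.0614) and -0.42 ± 0.13 (adjusted p = 0.0625). The count was 3 without chow replicate 1, chow replicate 2 or LFD 4-week replicate 1. Subunit medians were -0.08 and -0.05 in the 1 array of each diet with few hepatocyte transcripts and -0.14 and -0.13 in the other 3. The single arrays with few were not alike. Their hepatocyte mean was 7.30 in LFD and 5.11 in HFD, and Alb read 11.84 and 6.45.

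At 4 weeks members lay on both sides of 0. HFD minus LFD was below 0 for 30 of 71 (all genes 50.2%), with medians of 0.05 for the large and 0.03 for the small subunit, and these medians changed sign under some other settings. Limma called 0 members (all genes 0.212% in either direction). At an unadjusted p under 0.05, 8 were higher, all of the large subunit (all genes 4.78%), and 4 lower (all genes 4.54%). HFD arrays lay wholly above LFD arrays for 6 members, all Mrpl genes (8.45%; all genes 4.68%), and wholly below for 2, Mrpl1 and Mrpl3 (2.82%; all genes 4.41%). Mrpl54, a mitochondria-specific large-subunit protein, read 7.78, 8.42, 8.08 and 8.30 in LFD and 8.64, 8.84 and 8.86 in HFD. The groups did not overlap, with a difference of 0.64 ± 0.14 (adjusted p = 0.0547). Over the other settings its adjusted p ran from 0.0108 to 0.644. On the other side, Mrpl3 differed by -0.38 ± 0.15 (adjusted p = 0.417), Mrpl1 by -0.32 ± 0.11 (adjusted p = 0.326) and Mrps35 by -0.31 ± 0.12 (adjusted p = 0.387).

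Across times, 25 members were below 0 at 4, 8 and 12 weeks, 31 were above 0 at 4 weeks and below 0 at both later times, and Mrpl54 alone was above 0 at all 3. The test of an interaction between diet and time called 0 of 71 members and 0 of 22180 genes. At an unadjusted p under 0.05, 13 members passed, beside 5.41% of all genes, and the lowest adjusted p among members was 0.886. The 3 with the smallest p were Mrpl57, Mrps7 and Mrpl28. The diet difference of Mrpl57 was 0.31 at 4 weeks, -0.25 at 8 weeks and -0.13 at 12 weeks, that of Mrps7 was 0.17, -0.27 and -0.20, and that of Mrpl28 was 0.46, -0.02 and -0.16. By the criteria of the design text (unadjusted p under 0.05 and a fold of at least 1.5), 1 member was higher in HFD at 4 weeks (all genes 2.28%), 1 lower at 8 weeks (all genes 3.79%), 0 at 12 weeks (all genes 5.37%) and 0 in the average (all genes 2.81%).

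Averaged over the 3 times with equal weights, HFD lowered 8 members (11.3%; all genes 4.44%) and raised 1 (1.41%; all genes 6.03%). The fall covered 5 Mrps and 3 Mrpl genes, and by structure 4 proteins of each subunit, since Mrps30 sits in the large one. Mrps35 fell by 0.38 ± 0.06 (adjusted p = 3.98e-04) and Mrps15 by 0.41 ± 0.07 (adjusted p = 8.09e-04). Mrpl1 fell by 0.28 ± 0.06 (adjusted p = 0.00382), Mrps31 by 0.27 ± 0.07 (adjusted p = 0.00931) and Mrps18c by 0.36 ± 0.09 (adjusted p = 0.0125). With the mean of its 2 clusters, Mrps18c differed by -0.23 in the average and was not called (adjusted p = 0.0672), so this call too rests on 1 cluster. Mrps30 fell by 0.26 ± 0.07, Mrpl12 by 0.23 ± 0.07 and Mrpl3, the uL3 protein near the peptidyl transferase centre, by 0.27 ± 0.08, with adjusted p of 0.0214, 0.0278 and 0.0431. Mrpl54 rose by 0.33 ± 0.07 (adjusted p = 0.00486). Of these 9 calls, those of Mrpl12 and Mrpl3 were lost in 8 and 16 of the 25 fits that left out 1 array, and the other 7 were kept in all 25. The count was 14 without LFD 4-week replicate 1 or without the 3 arrays with raised epididymis transcripts, with the share of all genes in those fits not given here.

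**Figure D4:**
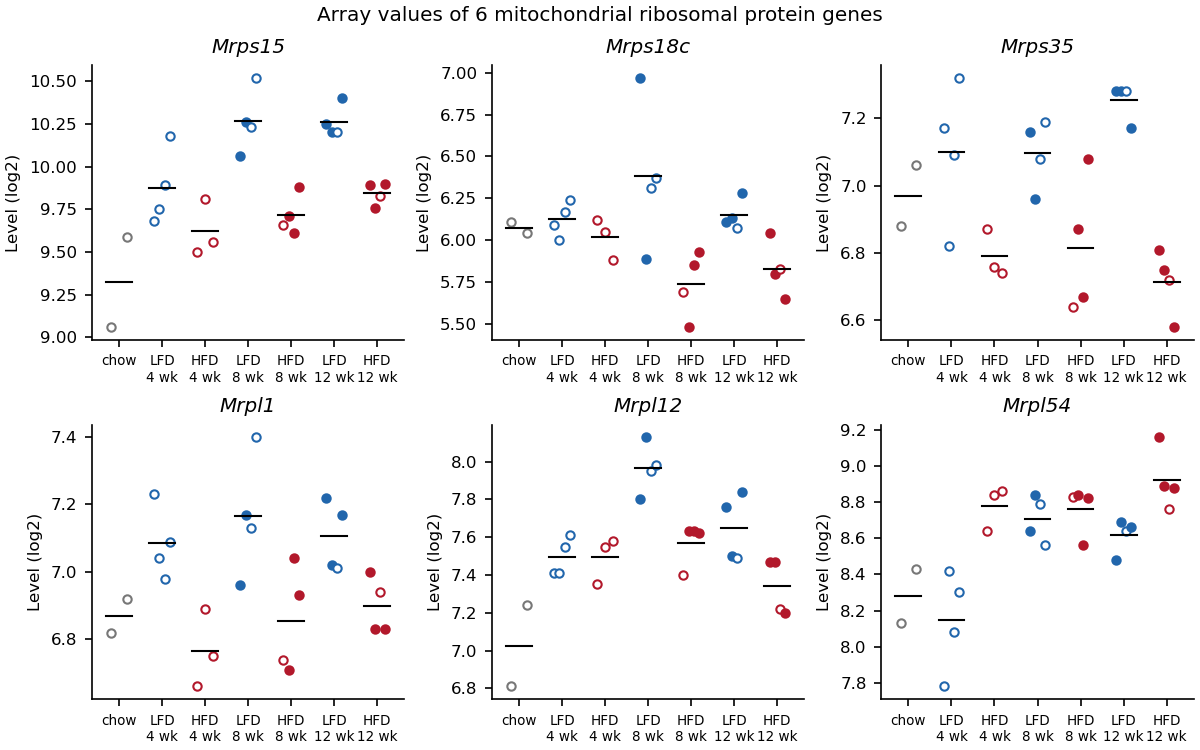
Array values (log2) of Mrps15, Mrps18c, Mrps35, Mrpl1, Mrpl12 and Mrpl54 in each group; each point is 1 array, filled where the hepatocyte marker mean was above 8, and lines are group means. Group means of Mrps15 and Mrps35 are lower in HFD than in LFD at 8 and 12 weeks, and that of Mrpl54 is higher in HFD at 4 and 12 weeks.

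For 6 members (8.45%; all genes 2.06%) HFD lay below LFD without overlap at both 8 and 12 weeks: Mrpl12, Mrpl37, Mrpl38, Mrpl58, Mrps7 and Mrps15. Mrps15 read 10.25, 10.20, 10.20 and 10.40 in LFD and 9.89, 9.76, 9.83 and 9.90 in HFD at 12 weeks. Mrpl58 read 8.69, 8.75, 8.63 and 8.77 against 8.60, 8.45, 8.58 and 8.52 at 12 weeks. Mrps31, a mitochondria-specific small-subunit protein, read 7.99, 7.69, 7.71 and 7.57 in LFD and 7.36, 7.32, 7.36 and 7.41 in HFD at 12 weeks, without overlap. Mrps30 read 8.20, 7.68, 8.11 and 7.97 in LFD and 7.64, 7.65 and 7.76 in HFD at 4 weeks, with 1 LFD array inside the HFD range, and 7.65, 7.75, 7.58 and 7.99 against 7.35, 7.49, 7.38 and 7.40 at 8 weeks, with none.

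By position in the ribosome, the 3 stalk proteins Mrpl10, Mrpl11 and Mrpl12 were all lower in HFD at 8 weeks, at -0.38, -0.17 and -0.40, none past the test at that time. The 6 measured proteins around the polypeptide exit tunnel had a median of -0.11 and those of the central protuberance, 7 genes, a median of -0.15. Mrps12, at the decoding site, differed by -0.18 ± 0.14 (adjusted p = 0.614). Medians by origin lay close together: at 8 weeks the median was -0.20 for the 28 large-subunit proteins with bacterial homologues and -0.18 for the 17 mitochondria-specific ones, and -0.16 and -0.18 for the 15 and 10 of the small subunit. Names and structure do not fully match. Mrps30 and Mrps18a lie in the large subunit, and Mrps36 is a component of the ketoglutarate dehydrogenase complex and no ribosomal protein. Sorted by structure, 42 of 45 large and 25 of 25 small proteins were below 0 at 8 weeks. Mrps36 differed by -0.25 at 8 weeks and was not called. Ribosomal proteins with other names gave -0.18 for Dap3 and -0.29 for Ptcd3, both of the small subunit, and -0.27 for Gadd45gip1 of the large subunit at 8 weeks. Of them Ptcd3 passed in the average, at -0.19 ± 0.06 (adjusted p = 0.0409).

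The machinery around the ribosome had medians near that of its proteins at 8 weeks. The median of HFD minus LFD was -0.19 for 25 assembly factors (24 below 0), -0.23 for 14 translation factors (14 below 0), -0.20 for 19 mitochondrial tRNA synthetases (18 below 0), -0.19 for 18 genes of mitochondrial DNA expression (15 below 0) and -0.21 for 15 import and chaperone genes (13 below 0). Those called lower among them were Trub2, a pseudouridine synthase of mitochondrial RNA, at -0.55, and Vars2, the valine tRNA synthetase, at -0.51. Citrate synthase Cs at -0.83 and prohibitin Phb2 at -0.34 were called too, where 1.24% of all genes were called lower. The elongation factor Tufm differed by -0.50 ± 0.15 (adjusted p = 0.0931). For nuclear genes of respiratory chain and ATP synthase subunits the median was -0.29 at 8 weeks and -0.31 at 12 weeks. At 8 weeks 67 of 69 were below 0 and 5 were called lower (all genes 1.24%). At 12 weeks 65 of 69 were below 0 and 11 were called lower (all genes 1.33%). In the average 38 of these 69 were called lower and 1 higher, beside 4.44% and 6.03% of all genes. Of the 71 mitochondrial ribosomal proteins 8 were called lower and 1 higher, and the difference between the lists was not tested.

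**Figure D5:**
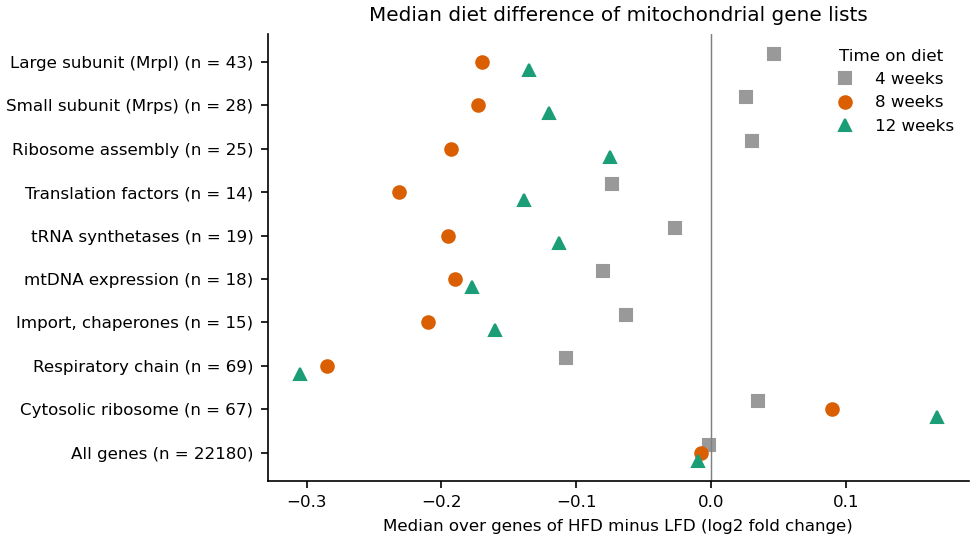
Median over genes of HFD minus LFD (log2 fold change) at 4, 8 and 12 weeks for the 2 mitochondrial ribosomal subunits, other mitochondrial gene lists, the cytosolic ribosome and all genes, with the number of measured genes. Mitochondrial lists lie below 0 at 8 and 12 weeks, and the cytosolic ribosome lies above 0.

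Cytosolic ribosomal proteins, which build the ribosome outside mitochondria, did not share the direction. Their median was 0.09 at 8 weeks (48 of 67 above 0) and 0.17 at 12 weeks (57 of 67 above 0). None was called at either time, beside 2.4% and 4.46% of all genes in either direction. Many have processed copies in the genome, so their clusters are less certain. Among regulators, Ppargc1a, the coactivator PGC-1 alpha that drives mitochondrial gene expression, was lower in HFD by 0.95 at 8 weeks (-0.95 ± 0.18, adjusted p = 0.00645) and differed by -0.76 ± 0.18 at 12 weeks (adjusted p = 0.0152). Ppargc1b fell by 0.60 ± 0.12 in the average (adjusted p = 0.00251). Tfam, Polrmt, Nrf1, Gabpa and Esrra, factors for mitochondrial DNA or nuclear mitochondrial genes, were not called at any time or in the average. Esrra came nearest, at -0.32 ± 0.10 at 8 weeks (adjusted p = 0.103) and -0.18 ± 0.06 in the average (adjusted p = 0.0646). The others lay between -0.22 (Polrmt) and -0.04 (Gabpa) at 8 weeks. For LFD at 8 against 4 weeks, 8 of 69 respiratory chain genes were called higher (all genes 0.469%), Ndufs8 and Ndufa11 at 0.70 and 0.68 among them. No regulator was called higher there.

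Promoter windows of 300 bases, 250 before and 50 after the start, were held by RefSeq for 62 of the 71 members. Searched on both strands, CCGGAAG, the core letters of the ETS family to which GABP belongs, occurred in 23 of 62 (37.1%), against 12.7% of measured genes and 9.93% of all genes in the table. The NRF1 site, in a form with a free base at its centre, occurred in 11 (17.7%, against 7.26% of measured genes), and AAGATGGCG, a form of the YY1 site, in 8 (12.9%, against 2.18%). At least 1 of these 3 was present in 36 of 62 (58.1%), against 19.8% of measured genes. The letters CCAAT occurred in 38.7% of members and 41.6% of measured genes, the E-box CACGTG in 8.06% and 9.22%, and AAGGTCA, the half-site of the estrogen-related receptors, in 6.45% and 4.66%. Member windows held 59% G and C, against 56.4% over measured genes, and several motif lengths were tried before these were chosen. ETS letters were found in 12 of 37 large-subunit and 11 of 25 small-subunit genes. Of the members lower in the average, Mrps18c, Mrpl12 and Mrpl3 held a match to the ETS, NRF1 or YY1 letters. Windows of Mrps15, Mrpl1, Mrps30 and Mrps31 held none, and Mrps35 had no window. Whether these letters bear on the diet difference was not tested. Mrpl12 and Mrpl3, both lower in the average, are shown with their match in capitals (200 bases before the start, + strand, at chr11:120484437-120484636 and chr9:105053068-105053267); Mrpl12 holds the NRF1 letters read on the other strand, and Mrpl3 the ETS letters.
Mrpl12: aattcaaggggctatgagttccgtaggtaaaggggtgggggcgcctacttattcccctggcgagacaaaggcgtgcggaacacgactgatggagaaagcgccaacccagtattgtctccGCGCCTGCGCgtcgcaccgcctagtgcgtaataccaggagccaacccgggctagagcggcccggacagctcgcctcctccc
Mrpl3: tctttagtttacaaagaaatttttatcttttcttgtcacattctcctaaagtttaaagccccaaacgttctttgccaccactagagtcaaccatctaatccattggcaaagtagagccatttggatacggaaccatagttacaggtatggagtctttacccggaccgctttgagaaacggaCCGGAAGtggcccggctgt

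Against chow, which had 2 arrays, 1 of them with epididymis transcripts, the members called were all higher: 1, 23 and 13 of 71 for LFD at 4, 8 and 12 weeks (all genes higher 1.07%, 6.62% and 5.23%) and 3, 14 and 11 for HFD (all genes higher 3.34%, 8.36% and 9.8%). LFD at 8 weeks held the most, 32.4% of members. The shares at 4 weeks, 1.41% on LFD and 4.23% on HFD, were near those of all genes. Without the 3 arrays with raised epididymis transcripts the counts were 0, 11 and 4 for LFD and 0, 4 and 4 for HFD, and with hepatocyte and epididymis means as covariates 0, 4 and 0 for LFD and 1, 1 and 2 for HFD.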

How the data were processed

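Gonadal fat of 25 mice was measured on 25 arrays. The deposited table held log2 values of 34472 transcript clusters, made by the authors in Transcriptome Analysis Console 4.0.2 per the labels and design text; its background correction and normalization: not given in the sources used here. Array medians lay between 5.04 and 5.36. Clusters were named from the platform annotation (25335 with an entry), clusters with 1 symbol were kept and the highest mean stood for a gene, giving 22180 genes.

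The 7 group means were fitted with limma 3.58.1 in R 4.3.3 (18 residual degrees of freedom, default prior), p values were adjusted by Benjamini-Hochberg over all genes, and an adjusted p under 0.05 was called. The fit was tested on simulated data. Precision is limited by 2 to 4 arrays a group. Members were named by smallest p (10 per diet comparison), by being called (up to 10 per time comparison) and from a fixed panel; levels of different clusters were not ranked. The members and gene lists were chosen with earlier results of these data known, and the cytosolic ribosome list and the motifs were added last. The main fit did not pair arrays by replicate number. Same-numbered arrays of the 2 diets deviated with correlations from -0.61 to 0.60, over 0.1 in 5 of 11 pairs. They ran from 0.05 to 0.28 at 4 weeks, from -0.61 to 0.31 at 8 weeks and from 0.03 to 0.60 at 12 weeks. Raised epididymis transcripts lay in arrays numbered 1, and the 12-week arrays with few hepatocyte transcripts were numbered 3 in both diets. Whether replicate number stands for a shared batch was not tested. Alternatives covered normalization, filtering, moderation, blocks, covariates and left-out arrays. Sequences came from RefSeq (GRCm38.p6).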

Additional observations from a re-analysis of the deposited data

Results flagged for a closer look

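Chance flags about 1 in 20 groups of this size, and 3 values lay far from the rest of their group in 55 groups checked. Mrpl12 read 7.40 in HFD 8-week replicate 1, against 7.62 to 7.63 in the other 3 arrays of the group. Mrpl54 read 8.56 in HFD 8-week replicate 3, against 8.82 to 8.84. Mrps35 read 7.17 in LFD 12-week replicate 4, against 7.28 in the other 3. In 2 members (2.82%; all genes 0.0721%) every HFD array lay above LFD at 4 weeks and below it at 8 weeks. Mrpl52 differed by 0.34 at 4 weeks and -0.16 at 8 weeks (-0.14 at 12 weeks), and Mrpl57 by 0.31 and -0.25 (-0.125 at 12 weeks). The interaction test of diet and time gave an adjusted p of 0.886 for both.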

How the results depend on the processing

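Subunit medians of HFD minus LFD stayed below 0 under all alternatives run at 8 weeks (-0.23 to -0.17 large, -0.24 to -0.15 small), 12 weeks (-0.16 to -0.08, -0.15 to -0.05) and in the average (-0.11 to -0.07, -0.10 to -0.07); at 4 weeks they spanned 0 (-0.02 to 0.10, -0.03 to 0.08). Counts of called members, each a few near the threshold, moved more, and the cause was not tested. Except for the design text's criteria, shares of all genes called under the alternatives are not given, so these counts have no background beside them. At 4 weeks (0 called), 1 was called with array weights, a filter on low values, trend and robust moderation, the covariates, the replicate block or the design text's criteria. At 8 weeks (2), 1 was called with only the groups compared, the mean of a gene's clusters or the design text's criteria, 5 with array weights, 9 without the 3 arrays with raised epididymis transcripts (chow, LFD 4-week and HFD 4-week replicate 1), and 0 with only arrays low or only arrays high in hepatocyte transcripts, which leave few arrays. At 12 weeks (1), 2 were called with only the groups compared, quantile normalization, the replicate block, the covariates or only high-hepatocyte arrays, 3 with the filter or without those 3 arrays, 5 with array weights, and 0 with low-hepatocyte arrays or the design text's criteria. In the average (9), 16 were called with array weights, 14 without those 3 arrays, and 0 with low-hepatocyte arrays or the design text's criteria. For LFD at 8 against 4 weeks (11), 7 were called after centring on array medians, 6 without those 3 arrays, 4 with the hepatocyte split as a block and 0 with low-hepatocyte arrays. For LFD at 12 against 4 weeks (3), 1 was called after centring or without those 3 arrays and 0 with the covariates, the split or low-hepatocyte arrays; HFD at 12 against 4 weeks gave 1 without those 3 arrays. The hepatocyte alternatives for time and all alternatives for chow were chosen after seeing the data. Leaving out 1 array gave 0 to 1 at 4 weeks, 0 to 4 at 8, 1 to 3 at 12, 7 to 14 in the average, 2 to 17 for LFD at 8 against 4 weeks and 0 to 6 at 12 against 4, and 0 for the other time comparisons and the interaction.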

Other observations

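The 7 symbols left out lie on 9 clusters shared with other genes, so their signal cannot be assigned. Of the 9 clusters, 7 were below 0 for HFD minus LFD at 8 weeks (-0.44 to 0.07) and 8 above 0 for LFD at 8 against 4 weeks. The highest of the latter were Mrpl53 with Ccdc142 at 0.63, Mrpl41 with Dph7 at 0.62 and Mrpl43 with Twnk at 0.62. Among 9 members with a second cluster of their own, the sign of HFD minus LFD at 8 weeks differed in 1, Mrps18c, and that of LFD at 8 against 4 weeks in 4, Mrpl10, Mrpl12, Mrpl36 and Mrps5. Over the 7 group means, the genes outside the lists closest to the mean profile of the members were Mlx (r = 0.994), Gm6818 (r = 0.993), Nmnat1 (r = 0.987), Alkbh4 (r = 0.984) and Znrd1as (r = 0.984), chosen from 21870 genes by this correlation, which is a description. Mlx, a partner of carbohydrate-sensing transcription factors, stood at 8.16 in LFD and 7.67 in HFD at 8 weeks (log2 group means).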
